A study of Mus musculus with 5 samples.

Results

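Naive CD4 T cells of mice can be turned into T helper 1 (Th1) cells and then given the signals that make induced regulatory T cells. The comparison described here sets Th1reg, a culture that rested between these steps, against Th1+TGFb, a culture that went straight from one to the other. These were 2 of the 5 cultures of the study, each measured on 1 array, so the members are the 2 arrays the labels give for them and every gene measured on them. All cultures came from splenic naive CD4 T cells of C57BL/6 mice. Th1 cells had 4 days of anti-CD3 and anti-CD28 together with IL-12, IL-2 and an antibody to IL-4. Th1+TGFb cells were Th1 cells given 4 more days in iTreg medium, which holds anti-CD3, anti-CD28, anti-IFNg, anti-IL-4, IL-2 and TGF-b, for 8 days in all. Th1reg cells were Th1 cells kept for 4 days in anti-IFN-g, anti-IL-4 and IL-2 and then moved to iTreg medium for 4 days, for 12 days in all. The rested culture is that intermediate after 8 days, and iTreg cells were naive cells given 4 days of iTreg medium. Th1reg and Th1+TGFb therefore shared the Th1 step and the iTreg medium, and differed by the rest and by the 4 added days, which cannot be told apart. The stated purpose of the series was to profile mRNA of CD4 T cells held under different conditions.

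Regulatory T cells restrain other lymphocytes and depend on the transcription factor Foxp3, which TGF-beta together with IL-2 and antigen receptor signals can induce in naive CD4 T cells. Th1 cells carry the factor T-bet (Tbx21), secrete interferon-gamma and lymphotoxin, and can acquire granzymes and perforin, the contents of cytotoxic granules. Cells taken away from receptor stimulation leave the cell cycle and regain genes of quiescence and lymphoid homing, and stimulation brings them back into division.

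A level below is the log2 of a gene's signal over the 75th percentile of signal on its array, and a difference is the level in Th1reg minus that in Th1+TGFb. With 1 array a culture there is no spread between cultures, so no p-value or standard error is given and each difference is between these libraries. Repeat spots on 1 array, which give technical spread only, put the SD of a difference at 0.086, or 0.24 for probes with a signal under 100. A gene is called dim on an array where the scanner software did not rate it well above background. A gene dim on 1 of the 2 arrays gets a bound, written "at least". The bound is taken against the lowest level well above background on that array, or the gene's own level there where that is higher. Between 45.7% and 48.7% of spots were well above background on the 5 arrays, and the 75th percentiles of signal ran from 128.4 to 259.4. Of 21366 genes, 8151 were dim on both arrays and left out. Of the other 13215, 1783 had a level in Th1reg 2-fold or more above that in Th1+TGFb (13.5%) and 1914 a level 2-fold or more below it (14.5%), and the median difference was 0.24. The lower genes held 735 bounds and the higher genes 203. That split depended on scaling and background correction: 27.6% of called genes were higher when the percentile was taken over detected probes, 31.3% after scaling to their median, 84.3% with 8 spike-in probes, 58.6% after normexp background correction, and 48.2% as reported. The 3 other scalings moved the median of all genes by -0.24, -0.21 and 0.63, and normexp, which is no scaling, moved it by -0.03. Under spike-in scaling the median of all genes was 0.87, and counts of a list are read against these shares.

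The difference also ran with signal. Among genes measured on both arrays with a mean level under -2, 3.13% were called higher and 19.2% lower, against 11.8% and 6.52% at a mean level of 4 or above. The plot of differences by level shows this. After a lowess fit of the difference on mean level, chosen after seeing the data, 1208 genes were higher and 1957 lower. Whether the trend bears on the lower calls among dim genes on their own was not tested.

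**Figure D1:**
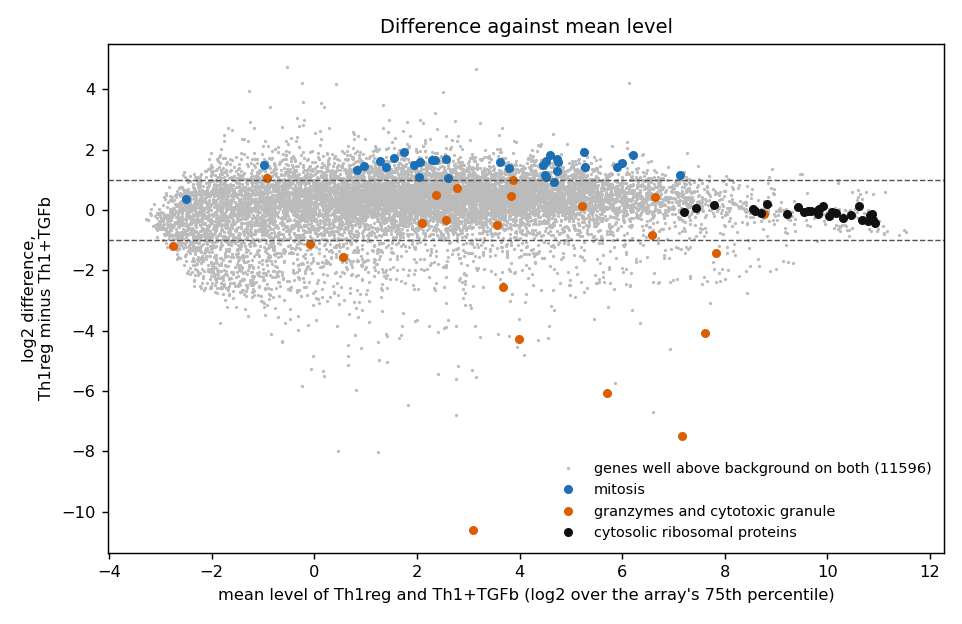
Difference between Th1reg and Th1+TGFb (log2, y axis) against the mean level of the 2 arrays (log2, x axis) for the 11596 genes well above background on both, with the mitosis, granule and ribosomal protein lists in colour. The median difference is -0.32 for genes under a mean level of -2 and 0.33 for those at 4 or above, and the horizontal lines mark a 2-fold difference.

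The markers of CD4 T cells were well above background on all 5 arrays, 9 of 9, with a summed signal, in multiples of the 75th percentile, of 1361 in Th1reg and 1909 in Th1+TGFb. Cd79a, Pax5 and Blk of the B cell list were dim on both arrays, and the list summed to 1.512 in Th1reg and 4.727 in Th1+TGFb, with 4 to 5 of 9 markers above background across the arrays. Lyz1, Lyz2, S100a8, S100a9, Fcgr1 and Mpo of the myeloid list were dim everywhere. Csf1r, Csf3r, Itgam, Siglech and Cd68 of that list were well above background on all 5 arrays. The sum of the myeloid list was 468.4 in Th1reg and 1297 in Th1+TGFb. Of its 7 tested markers 3 were lower, 0 higher and 4 short of 2-fold. The natural killer (NK) cell list summed to 4.786 in Th1reg and 19.39 in Th1+TGFb, with Ncr1 and Klrb1c dim on all arrays. The part of such cells in the differences below was not tested, and fewer cells of a type and less RNA per cell cannot be told apart in these bulk cultures.

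Foxp3 mRNA was well above background in Th1reg and not in Th1+TGFb. Its level was 4.36 in Th1reg and 5.44 in iTreg, and it was dim in Th1 (-5.12), Th1+TGFb (-5.07) or rested cells (-3.35). Th1reg and iTreg were thus the high cultures and the others were dim, and the difference was at least 194-fold. Lrrc32, which encodes GARP, the surface dock for latent TGF-beta on regulatory T cells, was at 1.57 in Th1, 0.81 in Th1+TGFb, 1.69 in the rested culture, 5.49 in Th1reg and 6.24 in iTreg. It was 25.8-fold higher in Th1reg than in Th1+TGFb and highest in iTreg, and the 3 other cultures lay within 1 unit of each other. Tgfbr1, the type I TGF-beta receptor kinase, was likewise highest in iTreg and next in Th1reg, with levels of -1.83 in Th1, -1.69 in Th1+TGFb, -1.08 in the rested culture, 1.30 in Th1reg and 2.0 in iTreg, a 7.92-fold difference.

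**Figure D2:**
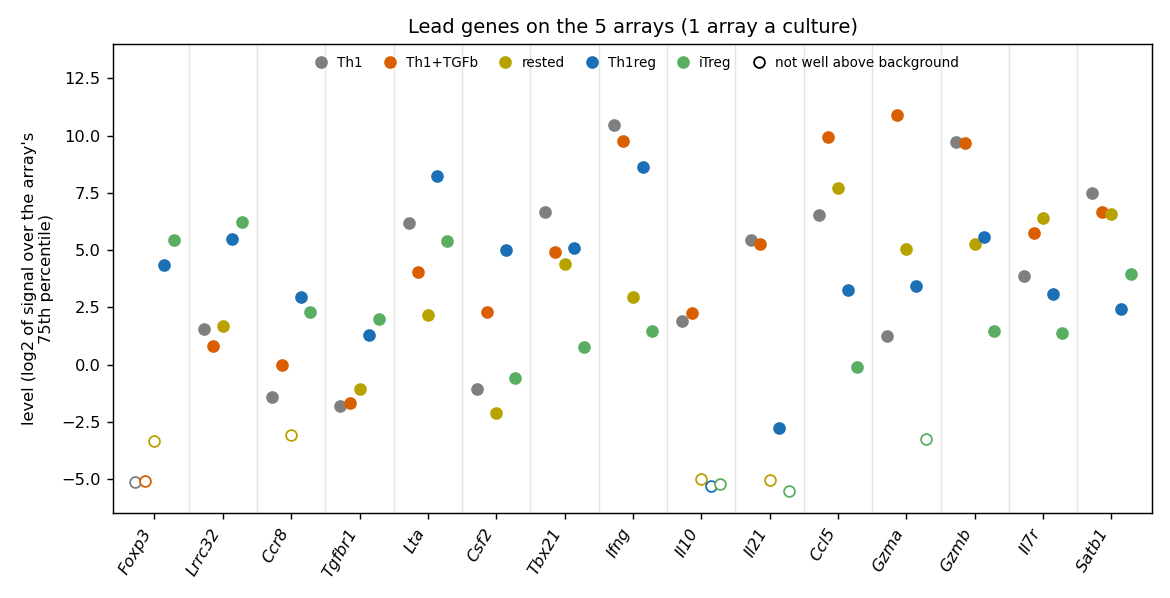
Level (log2 of signal over the array's 75th percentile) of the lead genes in each of the 5 cultures, 1 array each, with dim values drawn as open points. Foxp3 and Lrrc32 are highest in Th1reg and iTreg, and Gzma is highest in Th1+TGFb at 10.91.

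The list of 27 tested regulatory T cell core genes was mixed. Of these, 6 were called higher and 5 lower, against 13.5% and 14.5% of all genes. The median difference of the list was 0.36 against 0.24 for all genes. Ccr8, a chemokine receptor of regulatory T cell subsets, was 7.96-fold higher in Th1reg, with levels of -0.04 in Th1+TGFb and 2.96 in Th1reg. Socs2, a feedback gene of STAT5 signalling, was 5.57-fold higher, and Izumo1r, the folate receptor family gene also called FR4, 4.07-fold higher. Members of the tumour necrosis factor receptor family that both activated and regulatory cells carry were near no difference: Tnfrsf4 differed by 0.03 and Tnfrsf18 by 0.36. Il2ra, the high-affinity IL-2 receptor chain, was at 8.16 in Th1reg and 7.21 in Th1+TGFb, a difference of 0.95 that fell short of 2-fold.

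Il10, a suppressive cytokine and a marker of this comparison, lay the other way from Foxp3. Levels of 1.89 in Th1 and 2.23 in Th1+TGFb stood against dim values in the rested culture, Th1reg or iTreg (-5.02, -5.29 and -5.22), and Th1reg was at least 62.0-fold lower. Prdm1, which encodes Blimp-1, an inducer of Il10, had levels of 2.44 in Th1, 1.75 in Th1+TGFb, 0.17 in the rested culture and -1.13 in Th1reg, and was dim in iTreg (-3.96), a 7.35-fold lower level in Th1reg than in Th1+TGFb. Entpd1, the ectonucleotidase CD39, was 2.58-fold lower, and Penk, the proenkephalin gene, 2.98-fold lower. Ctla4, an inhibitory receptor of regulatory T cells, differed by -0.67 and Ikzf2, the factor Helios, by -0.26.

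Of 28 tested genes of the TGF-beta pathway, 2 were called higher and 7 lower, against 13.5% and 14.5% of all genes. The median of -0.33 became 0.30 under spike-in scaling, below the median of all genes there. Over the 25 measured on both arrays, 2 were higher and 5 lower, with a median of -0.31. The other lower calls were dim in Th1reg, which fixed their direction. Besides Tgfbr1, Skil, a feedback inhibitor of Smad signalling, was 2.04-fold higher. Pmepa1 and Smad7, which also report TGF-beta signalling, were short of 2-fold, unlike Skil. Pmepa1 was at 2.27 in Th1+TGFb and 2.71 in Th1reg, above its levels of 0.16 in Th1 and -2.0 in the rested culture. Smad7 differed by -0.21. Among the 7 lower genes were the ligands Tgfb2 and Tgfb3, Id2 and Acvrl1, a type I receptor.

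The Th1 programme was lower on balance with the T-bet gene itself near no difference. Of 28 members, 11 were called lower, against 14.5% of all genes, and 5 higher, with a median of -0.66. Tbx21 was at 6.64 in Th1, 4.92 in Th1+TGFb, 4.39 in the rested culture, 5.10 in Th1reg and 0.77 in iTreg, so Th1reg and Th1+TGFb differed by 0.18 and both lay far above iTreg. Ifng was at 10.45 in Th1, 9.76 in Th1+TGFb, 2.96 in the rested culture, 8.61 in Th1reg and 1.46 in iTreg. It was 2.23-fold lower in Th1reg than in Th1+TGFb, and both stood well above the rested and iTreg cultures. Hlx, a homeobox factor of Th1 cells, was 11.2-fold lower, and Il12rb2, the inducible IL-12 receptor chain, 6.99-fold lower. Eomes, the T-box factor of cytotoxic cells, was 4.03-fold lower. Runx3 and Stat4 differed by -0.63 and -0.79, both short of 2-fold.

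Other Th1 genes were higher in Th1reg. Lta, lymphotoxin-alpha, was at 6.18 in Th1, 4.04 in Th1+TGFb, 2.15 in the rested culture, 8.24 in Th1reg and 5.41 in iTreg, and was 18.5-fold higher in Th1reg than in Th1+TGFb. Csf2, which encodes GM-CSF, was at -1.06 in Th1, 2.28 in Th1+TGFb, -2.10 in the rested culture, 5.02 in Th1reg and -0.59 in iTreg, a 6.65-fold difference. Both cytokines peaked in Th1reg across the 5 arrays. Cxcr3, the chemokine receptor of Th1 cells, was highest in the rested culture at 7.05, next at 5.91 in Th1reg, and at 3.40 in Th1+TGFb, 1.91 in Th1 and 0.96 in iTreg, a 5.69-fold difference. Irf8 was 4.76-fold higher.

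Of 27 tested T cell cytokines, 4 were higher (Lta, Csf2, the osteoclast factor Tnfsf11 and Il4, the last against a level dim in Th1+TGFb) and 12 were lower, with a median of -0.85. The shares over all genes were 13.5% higher and 14.5% lower. Over the 22 measured on both arrays, 3 cytokines were higher and 8 lower, with a median of -0.56. Il21, a cytokine of helper cells that acts on B cells and killer cells, was at 5.43 in Th1 and 5.25 in Th1+TGFb, at -2.78 in Th1reg, and dim in the rested culture (-5.03) or iTreg (-5.52). It was 261-fold lower in Th1reg, where its level lay close to the lowest level well above background (-3.72), so that ratio is imprecise. Il2, the T cell growth factor, was at 1.85 in Th1+TGFb, -2.82 in Th1, -2.38 in the rested culture and -0.11 in iTreg, and was dim in Th1reg (-3.63), at least 44.6-fold lower there. Il22 and Csf1 were lower too, at least 11.4-fold and 6.76-fold, and Spp1 (osteopontin) was 5.25-fold lower. Tnf differed by -0.49, short of 2-fold.

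Granzymes held some of the largest differences of the comparison. Of 25 tested genes of the cytotoxic granule list, 13 were lower in Th1reg and 1, Gzmm, was higher, with a median of -1.14. The shares over all genes were 14.5% lower and 13.5% higher. Gzmd, Gzmf and Gzmg were tested through Th1+TGFb only, and over the 22 genes measured on both arrays 10 were lower, with a median of -0.66. Gzma, a trypsin-like granzyme, was at 1.25 in Th1, 10.91 in Th1+TGFb, 5.06 in the rested culture, 3.42 in Th1reg and dim in iTreg (-3.25). Th1+TGFb was the single highest culture, and Th1reg was 180-fold lower than it. Gzmb, the aspartate-cutting granzyme of killer cells, was at 9.72 in Th1, 9.66 in Th1+TGFb, 5.28 in the rested culture, 5.58 in Th1reg and 1.45 in iTreg. Its 16.9-fold difference placed Th1reg near the rested culture and Th1+TGFb near Th1. Prf1, the pore-forming perforin, was at 3.69 in Th1, 4.95 in Th1+TGFb, 0.72 in the rested culture, 2.40 in Th1reg and 0.56 in iTreg, a 5.82-fold difference.

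The clustered granzymes Gzmc to Gzmg were highest in Th1+TGFb. Gzme was at 1.17 in Th1, 8.40 in Th1+TGFb, 0.89 in the rested culture and -2.20 in Th1reg, and dim in iTreg (-5.38), with a difference of -10.60. Gzmg was at -2.10 in Th1, 5.23 in Th1+TGFb and -0.34 in the rested culture, and dim in Th1reg (-5.67) or iTreg (-4.23), at least 497-fold lower in Th1reg. Gzmd (at least 442-fold), Gzmf (a bound of -6.74 in log2) and Gzmc (66.7-fold) were lower too. These genes are related copies, and whether their probes share targets was not tested, so the members may not be independent of each other. Among carriers and regulators of the granule, Serpinb6b, a serine protease inhibitor, was 19.5-fold lower. Srgn, the granule proteoglycan serglycin, was 2.71-fold lower, and Serpinb9, the inhibitor of granzyme B, differed by -1.14. Genes of granule release were near no difference, with Stxbp2 at 0.15, Unc13d at 0.47, Lamp1 at 0.42 and Nkg7 at -0.14. Fasl, the death ligand, was higher in Th1reg by just under 2-fold.

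Promoters of the granzymes that stood apart are shown because their genes lie side by side, apart from Gzma, and differed in the same direction. Each is the 200 bases directly before the RefSeq start, 5′ to 3′ on the strand of the gene, in GRCm38.p6, with matches to the Runx motif TGTGGT, or ACCACA on the other strand, and in Gzmb also the AP-1 motif TGACTCA, or TGAGTCA on the other strand, in capitals.
Gzma, chr13:113100982-113101181, minus strand: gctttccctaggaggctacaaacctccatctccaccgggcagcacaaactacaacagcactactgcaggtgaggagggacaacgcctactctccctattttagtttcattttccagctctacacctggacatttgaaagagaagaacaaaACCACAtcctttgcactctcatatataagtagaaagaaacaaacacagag
Gzmb, chr14:56262335-56262534, minus strand: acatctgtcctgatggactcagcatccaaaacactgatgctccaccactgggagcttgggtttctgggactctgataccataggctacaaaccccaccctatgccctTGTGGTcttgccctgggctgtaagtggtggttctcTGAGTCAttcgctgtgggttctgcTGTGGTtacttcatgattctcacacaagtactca
Gzmd, chr14:56132594-56132793, minus strand: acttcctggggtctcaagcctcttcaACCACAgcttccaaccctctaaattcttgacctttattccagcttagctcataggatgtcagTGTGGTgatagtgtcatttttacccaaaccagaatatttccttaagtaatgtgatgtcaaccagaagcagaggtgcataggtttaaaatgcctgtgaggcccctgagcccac
Gzme, chr14:56120626-56120825, minus strand: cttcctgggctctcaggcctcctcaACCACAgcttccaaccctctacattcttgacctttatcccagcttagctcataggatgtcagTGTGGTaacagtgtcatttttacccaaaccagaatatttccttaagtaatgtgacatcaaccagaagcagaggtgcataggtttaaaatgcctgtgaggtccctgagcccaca
Gzmg, chr14:56159580-56159779, minus strand: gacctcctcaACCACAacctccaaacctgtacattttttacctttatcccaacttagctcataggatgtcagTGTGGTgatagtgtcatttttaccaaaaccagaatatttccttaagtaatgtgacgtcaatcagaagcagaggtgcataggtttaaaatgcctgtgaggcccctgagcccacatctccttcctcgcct
Over the RefSeq window of 250 bases before to 50 after the start, the Runx motif was in 8 of the 9 promoters of tested granzymes (88.9%), among them that of Gzmm, which was higher in Th1reg, and not that of Gzmk. This stands against 13.1% of the 10569 promoters of tested genes and 16.9% of all 27025 promoters. Gzmc to Gzmg each held it at 2 places, which lay 174 and 112 bases before the start in Gzmd and 175 and 113 in Gzme. The AP-1 motif was in 1 of 9, that of Gzmb, against 3.88% of tested genes, and the T-box motif GGTGTGA in 1 of 9, that of Gzmk, against 3.53%. Promoters of Gzmc to Gzmg were 74.6% to 93.4% identical over 10 pairs, and other granzyme pairs 46.8% to 53.2%, so the matches in Gzmc to Gzmg are not separate observations. A match is a run of letters and was not tested as a binding site.

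The granzymes on chromosome 14 formed a run of 7 neighbouring tested genes, from Ctsg to Gzmb, all lower in Th1reg with a median difference of -6.74. Gzmd, Gzmf and Gzmg in this run were dim in Th1reg and tested through Th1+TGFb only, which fixed their direction. The median is itself the bound of Gzmf. Other clusters held runs of lower neighbours too, and the plot of neighbouring genes shows some of them. Such runs were not limited to immune genes. A run of 4 Olfr genes on chromosome 7 had a median of -2.30, and 4 Vmn1r genes there -1.60. Some other runs were higher in Th1reg. On chromosome 6 a run of 6 genes from Klre1 to Klri2 had a median of -2.16, and a run of 7 from Klra17 to Klra1 a median of -2.46. Klra17 and Klra7 were dim in Th1reg, so their direction was fixed too. On chromosome 11 Ccl5, Ccl9, Ccl3 and Ccl4 had a median of -4.16. Neighbours within such clusters are related in sequence, and their probes may share targets.

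**Figure D3:**
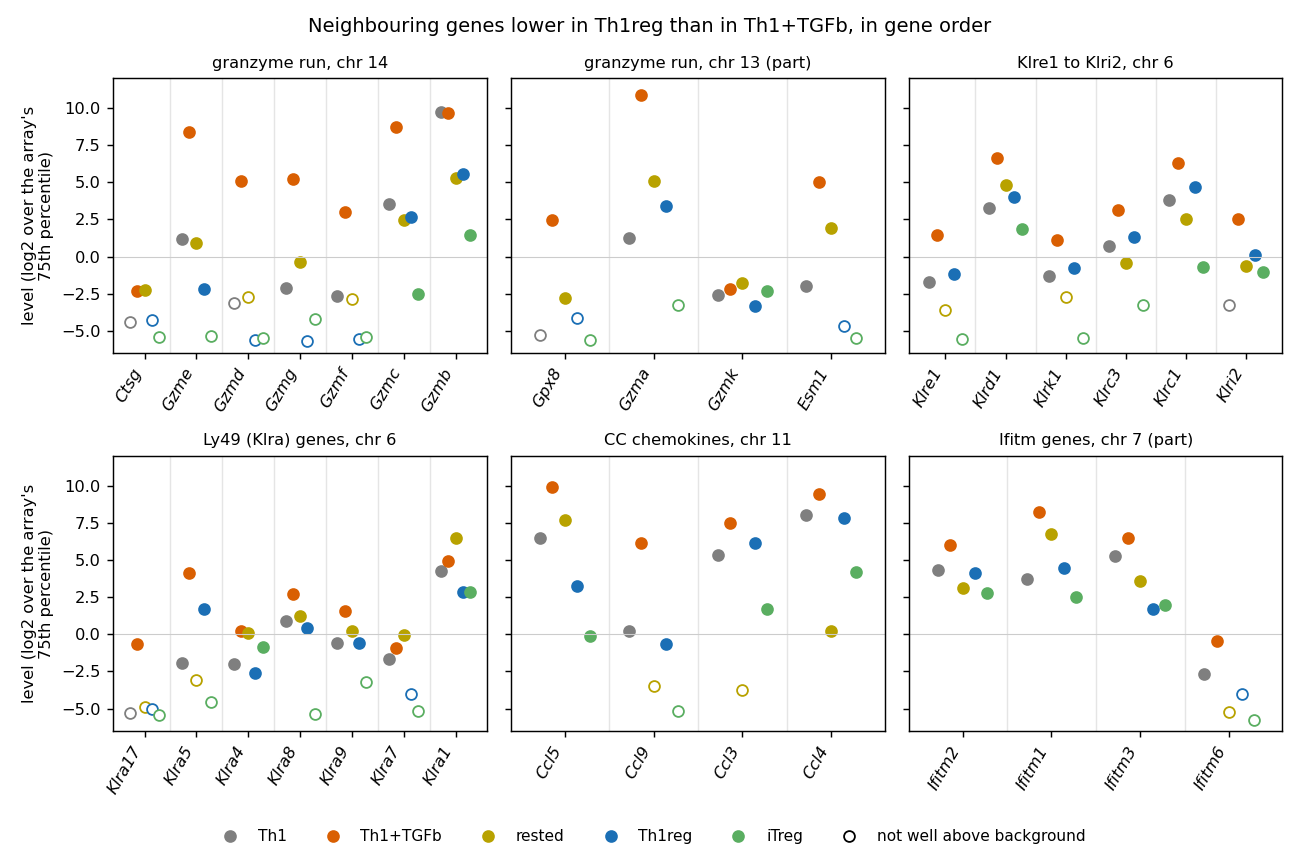
Levels (log2, y axis) of neighbouring genes in gene order (x axis) in 6 runs that were lower in Th1reg, with a point for each of the 5 cultures. Open points are dim. In the chromosome 14 run the Th1+TGFb points lie above all others from Gzme to Gzmc, and at Gzmb Th1 is at 9.72 and Th1+TGFb at 9.66.

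Killer lectin-like receptors, which NK cells and some T cells use to read class I molecules and stress ligands, were lower in Th1reg. The 11 measured on both arrays were all at least 2-fold lower, against 14.5% of all tested genes, with a median of -2.28. The list held 25 genes, of which 9 were dim on both arrays and 2 had no probe. The other 3, Klra17, Klra7 and Klrb1f, were dim in Th1reg and were tested through Th1+TGFb only, which fixed their direction. Klrd1 (CD94), the shared partner of the NKG2 chains, was at 3.30 in Th1, 6.61 in Th1+TGFb, 4.81 in the rested culture, 4.03 in Th1reg and 1.89 in iTreg, a 6.00-fold difference. Klrc1 (NKG2A), its inhibitory partner, was at 3.82, 6.33, 2.56, 4.70 and -0.69 in the same order, and Klrk1 (NKG2D), an activating receptor, was 3.61-fold lower. Klra5, a Ly49 receptor gene, was 5.50-fold lower. Th1+TGFb had the highest level for all of these. Of the NK markers, Ncr1 and Klrb1c were dim on all arrays. Ly49 genes are close copies, so single members are uncertain.

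Chemokine ligands split. Of 11 tested, 4 were higher and 6 lower, against 13.5% and 14.5% of all genes. Over the 8 measured on both arrays, 2 were higher and 5 lower. Ccl5 (RANTES) was at 6.51 in Th1, 9.94 in Th1+TGFb, 7.69 in the rested culture, 3.25 in Th1reg and -0.09 in iTreg, and was 103-fold lower in Th1reg. Ccl9 was 111-fold lower, with 6.16 in Th1+TGFb and -0.64 in Th1reg. Ccl3 and Ccl4, inflammatory chemokines of activated T cells, were 2.51-fold and 3.10-fold lower, and both stayed far above the rested culture, where Ccl4 was at 0.25. Ccl1, a ligand of Ccr8, was at 5.06 in Th1+TGFb, 7.11 in Th1reg and 3.59 in iTreg and dim in Th1 (-5.51) or rested cells (-4.12), a 4.14-fold difference. Ccl1 and Ccr8 were thus both higher in Th1reg. Xcl1 was 2.01-fold higher, and Cx3cl1 and Ccl17 were higher by at least 5.83-fold and 3.88-fold.

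Among 17 chemokine receptors tested, 5 were higher and 9 lower, against 13.5% and 14.5% of all genes, with a median of -1.88. Over the 10 measured on both arrays, 4 were higher and 4 lower, with a median of -0.64, and the other 5 lower ones were dim in Th1reg. The 5 higher were Ccr8, Cxcr3, Ccr4, Ccr6 and Cx3cr1. Ccr6, which follows Ccl20, was at -0.41 in Th1+TGFb and 1.71 in Th1reg, and Ccr4, a receptor of skin-homing and regulatory cells, at 0.63 and 3.10. Cx3cr1 was at 0.40 in Th1reg and 2.24 in iTreg and dim in Th1+TGFb (-3.50), at least 12.4-fold higher. Cxcr6, which follows Cxcl16, was lower: 1.15 in Th1, 6.53 in Th1+TGFb, 6.17 in the rested culture, 2.20 in Th1reg and 0.86 in iTreg, a difference of -4.32. Cxcr1 was 255-fold lower, but its level of -3.54 in Th1reg lay next to the lowest level well above background, so the ratio is imprecise. Cxcr4, which holds cells in niches rich in Cxcl12, was at 0.63 in Th1+TGFb and dim in Th1reg (-4.28), at least 20.4-fold lower.

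Of 14 integrin genes 6 were lower, against 14.5% of all genes, and 0 higher, against 13.5%, with a median of -0.74. Under spike-in scaling 3 were lower and 2 higher, against 1053 and 5648 of all 13215 genes, with a median of -0.11. Itgam (4.98-fold) and Itga3 (4.34-fold) led the lower ones. Itga4 and Itgb7, which pair in the receptor for gut homing, were 3.33-fold and 2.43-fold lower.

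Inhibitory receptors differed both ways, 3 higher and 8 lower of 20, with a median of -0.50 (0.14 under spike-in scaling). The shares over all genes were 13.5% higher and 14.5% lower. Over the 17 measured on both arrays, 3 inhibitory receptors were higher and 5 lower, with a median of -0.23. Havcr2 (TIM-3) was at 1.65 in Th1+TGFb and -1.25 in Th1, and dim in the rested culture (-5.05), Th1reg (-4.29) or iTreg (-5.53), at least 41.5-fold lower in Th1reg. Lag3 was 12.5-fold lower, and Vsir (VISTA) 3.75-fold lower. Tox, a factor of long-stimulated T cells, was 8.27-fold higher, with -1.86 in Th1+TGFb, 1.19 in Th1reg and 1.85 in iTreg. Pdcd1 (PD-1) differed by 0.06 and Cd5 by 0.02. Of 24 costimulatory and TNF receptor genes 1 was higher, against a background of 13.5%, and 10 lower, against 14.5%. Their median was -0.37 (0.26 under spike-in scaling). Over the 21 measured on both arrays, 0 were higher and 8 lower, with a median of -0.27. The other calls were dim on 1 of the arrays, which fixed their direction. Cd28 was 3.75-fold lower, with 6.96 in Th1+TGFb and 5.05 in Th1reg, and Fas, the death receptor, 5.12-fold lower.

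Genes of quiescence and lymphoid homing were lower in Th1reg, 12 of 29, with 1 higher (Foxp1) and a median of -0.85. The shares over all genes were 14.5% lower and 13.5% higher. Th1reg had the lowest level of the 5 cultures for 19 of the 29, against 16.9% of all genes. Satb1, a chromatin organiser of T cells, was at 7.51 in Th1, 6.68 in Th1+TGFb, 6.59 in the rested culture, 2.42 in Th1reg and 3.97 in iTreg, a 19.1-fold difference. Tcf7 (TCF-1) and Il7r, the IL-7 receptor chain that keeps resting cells alive, were 6.30-fold and 6.26-fold lower. Btg2 and Pik3ip1, brakes on growth, were 4.76-fold and 3.52-fold lower, while Klf2 and S1pr1, the factor and receptor of exit from lymph nodes, differed by -0.56 and -0.61. In the rested culture Klf2 was at 5.85 and in Th1reg at -0.60.

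Cell cycle genes were higher in Th1reg as a group. Of 35 tested DNA replication genes, 30 were higher in Th1reg and 0 lower, with a median of 1.37. Of 34 tested mitosis genes, 32 were higher and 0 lower, with a median of 1.52. The background was 13.5% of all genes. Th1reg had the highest level of the 5 cultures for 28 of 35 and 31 of 34, against 31.7% of all genes. Mcm5, a subunit of the replicative helicase, was at 5.84 in Th1, 4.44 in Th1+TGFb, 2.0 in the rested culture, 6.08 in Th1reg and 5.67 in iTreg, and was 3.11-fold higher in Th1reg. Mki67, the proliferation antigen Ki-67, was at 6.86 in Th1, 5.31 in Th1+TGFb, 3.51 in the rested culture, 7.12 in Th1reg and 7.02 in iTreg, a 3.50-fold difference. Plk1, a mitotic kinase, was at 5.85 in Th1, 4.29 in Th1+TGFb, 1.86 in the rested culture, 6.21 in Th1reg and 4.93 in iTreg, a 3.77-fold difference. These 3 genes shared an order, with the rested culture lowest, Th1+TGFb next, and the other cultures above. The largest differences were those of Gins1 (3.73-fold) and Lig1 (3.60-fold) in replication, and of Ncapg (at least 3.92-fold) and Nuf2 (3.82-fold) in mitosis. Rfc3 (0.15) and Gins3 (0.24) were the replication genes nearest to no difference.

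Set against the Th1 culture, the difference lay mostly on the side of Th1+TGFb: the median level of replication genes in Th1+TGFb minus Th1 was -1.19 and of mitosis genes -1.20, with 28 of 35 and 26 of 31 at least 2-fold lower. Th1reg minus Th1 gave 0.22 and 0.29, Th1reg minus rested 3.35 and 3.80, and Th1reg minus iTreg 0.53 and 0.81. These contrasts share arrays and are set side by side only.

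**Figure D4:**
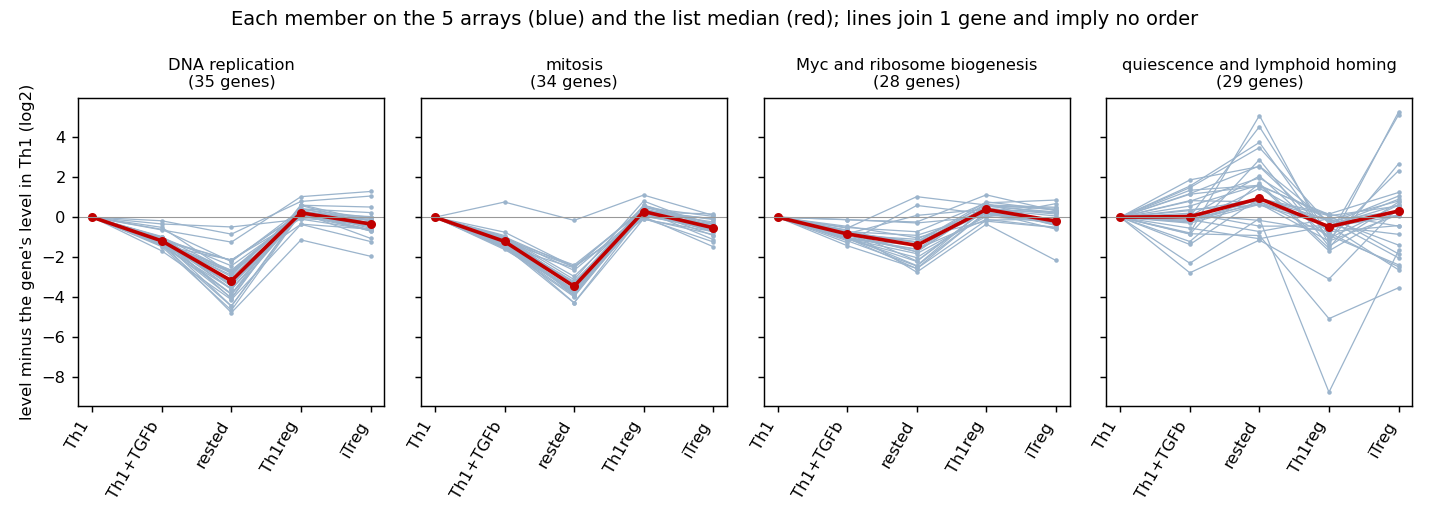
Level of each member minus its level in Th1 (log2, y axis) across the 5 cultures (x axis) for the DNA replication, mitosis, ribosome biogenesis and quiescence lists, with single genes in blue and the list median in red. The DNA replication median of Th1reg lies 0.22 above Th1 and that of Th1+TGFb 1.19 below it.

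Promoters of cell cycle genes are shown for the elements by which such genes are known to be grouped. The first 3 are the mitosis genes with the largest differences among those whose printed window holds both the CHR element TTTGAA, read as TTCAAA on the other strand, and the CCAAT box, which on the other strand reads ATTGG, in capitals, and the last 2 are replication genes with the E2F motifs TTTCCCGC (GCGGGAAA on the other strand) or TTTGGCGC (GCGCCAAA on the other strand) in capitals. Windows and source are as for the granzymes.
Ncapg, chr5:45669725-45669924, plus strand: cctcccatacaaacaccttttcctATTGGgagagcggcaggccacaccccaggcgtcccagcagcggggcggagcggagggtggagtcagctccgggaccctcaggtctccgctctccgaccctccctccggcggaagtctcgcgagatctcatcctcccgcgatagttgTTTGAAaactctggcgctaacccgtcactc
Mki67, chr7:135716380-135716579, minus strand: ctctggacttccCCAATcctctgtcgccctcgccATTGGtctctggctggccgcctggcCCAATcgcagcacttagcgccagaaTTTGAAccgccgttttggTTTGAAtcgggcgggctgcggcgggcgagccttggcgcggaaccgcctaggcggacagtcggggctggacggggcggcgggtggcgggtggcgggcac
Kif11, chr19:37376182-37376381, plus strand: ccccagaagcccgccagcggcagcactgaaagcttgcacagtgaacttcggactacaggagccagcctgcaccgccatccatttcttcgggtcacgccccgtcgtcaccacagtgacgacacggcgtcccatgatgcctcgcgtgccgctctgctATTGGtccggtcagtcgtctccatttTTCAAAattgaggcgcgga
Pola1, chrX:93632156-93632355, minus strand: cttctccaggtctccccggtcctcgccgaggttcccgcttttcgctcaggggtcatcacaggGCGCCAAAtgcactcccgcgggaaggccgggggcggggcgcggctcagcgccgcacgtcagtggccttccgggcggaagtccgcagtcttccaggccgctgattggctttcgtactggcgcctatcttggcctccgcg
Cdc6, chr11:98907951-98908150, plus strand: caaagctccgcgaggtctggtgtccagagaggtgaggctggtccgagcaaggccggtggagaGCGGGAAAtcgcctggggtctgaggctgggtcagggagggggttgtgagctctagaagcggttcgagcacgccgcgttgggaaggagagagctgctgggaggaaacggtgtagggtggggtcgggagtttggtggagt
Of the 29 mitosis genes with a RefSeq promoter, 20 held the CHR element (69.0%), against 12.7% of promoters of tested genes and 18.1% of all. CCAAT was in 22 (75.9%), against 38.7% and 37.9%. An E2F motif was in 11 of 30 replication promoters (36.7%), against 2.88% and 1.63%. The E2F match in Pola1 and in Cdc6 lay 138 bases before the start. The genes differed in level by 1.97 (Ncapg, as a bound), 1.81 (Mki67), 1.73 (Kif11), 1.71 (Pola1) and 1.68 (Cdc6).

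Cyclins and inhibitors of G1 were mixed, 3 higher and 1 lower of 15, against 13.5% and 14.5% of all genes. Ccnd1 was 5.67-fold higher, with -3.01 in Th1+TGFb and -0.51 in Th1reg, while Ccnd2 and Ccnd3, the D cyclins usual in T cells, differed by 0.11 and 0.16. Cdkn2d, an inhibitor of CDK4 and CDK6, was 2.19-fold lower, and Cdkn1a (p21) differed by -0.04.

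Genes of ribosome biogenesis that Myc is known to drive were higher, 22 of 28, against 13.5% of all genes. The list held 0 lower genes and had a median of 1.24. Myc itself was at 4.51 in Th1, 3.46 in Th1+TGFb, 1.93 in the rested culture, 4.36 in Th1reg and 4.42 in iTreg, a difference of 0.90 short of 2-fold. Gar1, of the pseudouridylation complex, was 3.22-fold higher, Ppan 3.04-fold and Nop58, of the methylation complex, 2.79-fold. The cytosolic ribosomal proteins themselves did not follow, with 0 of 28 past 2-fold in either direction and a median of -0.06, which ran up to 0.57 under spike-in scaling. Of 24 amino acid and ATF4 genes, 8 were higher and 2 lower, against 13.5% and 14.5% of all genes. Phgdh, the first enzyme of serine synthesis, was 3.50-fold higher, with 5.48 in Th1+TGFb and 7.29 in Th1reg, and Shmt1 and Shmt2, which pass the serine carbon to folate, 3.92-fold and 2.82-fold.

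Glycolysis and hypoxia genes were not higher, with 0 of 28 called higher and 5 lower, and a median of -0.37 (0.26 under spike-in scaling). The shares over all genes were 13.5% higher and 14.5% lower. Slc2a3 (GLUT3) was 8.15-fold lower, with 5.33 in Th1+TGFb and 2.31 in Th1reg, and Hif1a 2.87-fold lower, with 5.41 and 3.89. Slc2a1 (GLUT1), Hk2 and Ldha differed by -0.14, -0.12 and -0.12. The respiratory chain list lay above the median of all genes at 0.51, with 2 of 28 called higher, Ndufa4 (4.13-fold) and Ndufa9 (2.12-fold). Sterol and fatty acid synthesis had 2 of 30 called higher, Fasn (2.79-fold) and Fads1 (2.47-fold), and a median of 0.43.

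**Figure D5:**
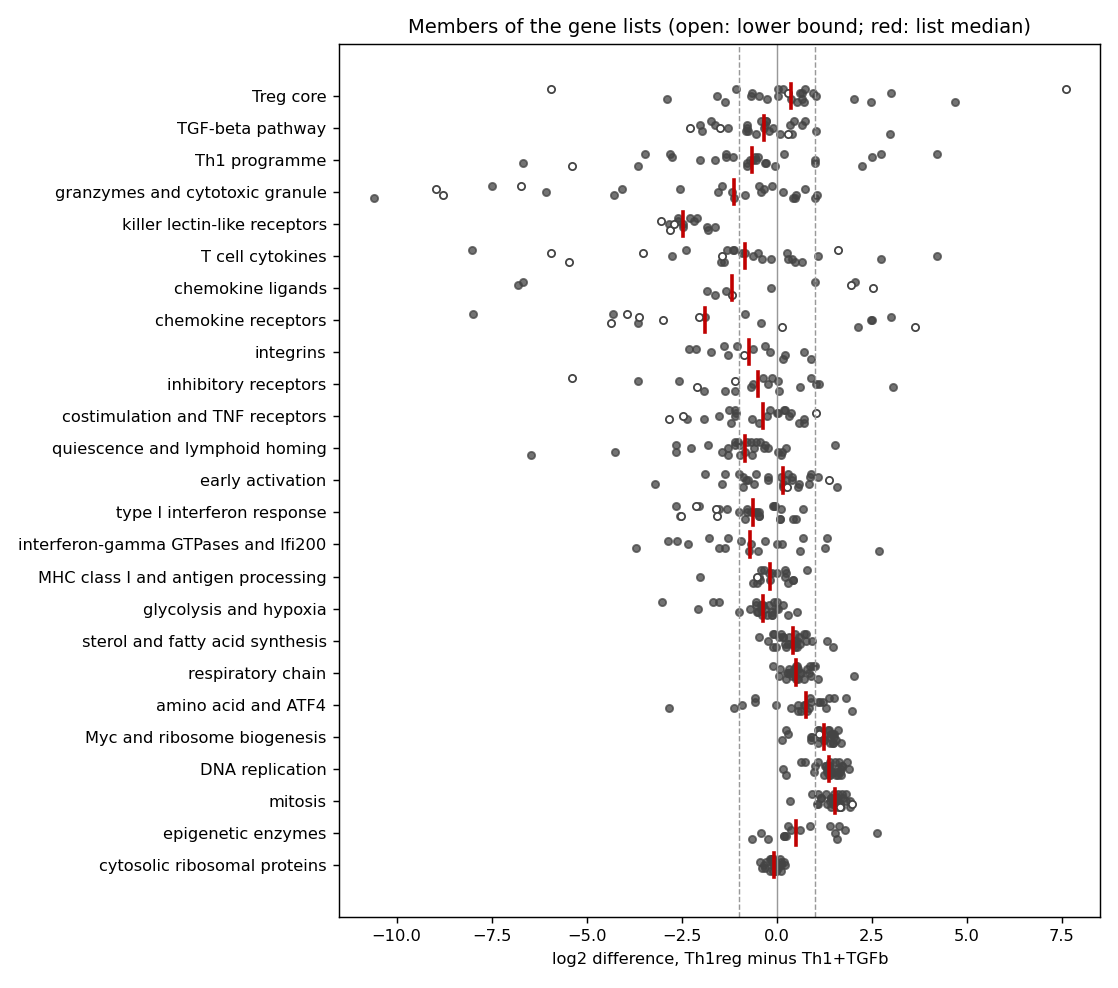
Difference between Th1reg and Th1+TGFb (log2, x axis) of every tested member of each gene list (rows), with the median of each list marked in red and bounds as open points. DNA replication, mitosis and ribosome biogenesis have medians from 1.24 to 1.52. Killer lectin-like receptors have -2.46 over the 14 tested, and -2.28 over the 11 measured on both arrays.

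Some interferon response genes were lower in Th1reg. Of 28 genes of the type I response 9 were lower, against 14.5% of all genes, and 0 higher, with a median of -0.63 (0.01 under spike-in scaling). Over the 24 measured on both arrays, 5 were lower and 0 higher, with a median of -0.50. The other lower calls were dim in Th1reg and tested through Th1+TGFb only, which fixed their direction. Usp18, which limits interferon signalling, was at 5.53 in Th1, 2.65 in Th1+TGFb, 2.76 in the rested culture, -0.02 in Th1reg and -0.53 in iTreg, a 6.33-fold difference. Isg15, a ubiquitin-like protein, was 5.83-fold lower. Of 20 interferon-gamma GTPase and Ifi200 genes, 8 were lower and 3 higher, against 14.5% and 13.5% of all genes. Gbp2, a guanylate-binding protein, was 6.18-fold lower and Ifi209 13.1-fold lower, while Ifi203 was 6.39-fold higher. The class I antigen presentation list had 1 of 19 lower, H2-Q4 (4.09-fold), and 0 higher, with Tap1 at 0.21 and B2m at -0.41. Both cultures had an antibody to IFN-g in the iTreg medium, and Th1reg had it during the rest too. Whether the antibody bears on these levels was not tested.

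Signalling lists lay near no difference with a few exceptions. Their counts stand against 13.5% of all genes higher and 14.5% lower. Of 25 proximal T cell receptor genes, 1 was higher and 3 lower, and Lck, Zap70 and Lat differed by -0.05, -0.02 and -0.01, while Cd247, the zeta chain, was 3.05-fold lower and Cd3g 2.31-fold lower. Early activation genes were 3 higher and 4 lower of 29, with Egr1 at 0.23 and Nr4a1 at 0.58. Spry2, an inhibitor of the Ras pathway, was 9.28-fold lower, and Dusp4, a phosphatase of MAP kinases, 2.98-fold higher. Of 23 NF-kappaB genes 4 were lower and 0 higher, led by Tnfaip3 (A20), 3.56-fold. The IL-2 family list was mostly flat, 1 higher and 4 lower of 23, but Bcl6, the repressor of follicular helper cells, was at 0.83 in Th1, 3.78 in Th1+TGFb, 3.46 in the rested culture, -0.47 in Th1reg and 3.09 in iTreg, a difference of -4.25, and Socs3 was 9.12-fold lower. Th1reg and Th1 were the low cultures for Bcl6.

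Death regulators were 3 higher and 7 lower of 22, against 13.5% and 14.5% of all genes. Bcl2l11 (BIM) was dim in Th1reg (-3.39) and at least 22.4-fold lower than in Th1+TGFb, while Bid was 3.54-fold higher and Bcl2l1 (BCL-XL) 2.29-fold higher. Of 16 epigenetic enzymes 6 were higher and 0 lower, against the same shares. Dnmt3b, a de novo DNA methyltransferase, was at 1.85 in Th1, 0.42 in Th1+TGFb, 1.81 in the rested culture, 3.05 in Th1reg and 3.26 in iTreg, a 6.20-fold difference, and Dnmt3a was 3.45-fold and Dnmt1 3.13-fold higher. Tet2 differed by 0.18.

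A difference of 10-fold or more was found for 27 genes with the higher level in Th1reg and for 127 with the lower. Among the largest outside the lists, Gap43, a growth cone protein of neurons, was at 1.55 in Th1, 0.57 in Th1+TGFb, -0.44 in the rested culture, 4.46 in Th1reg and 0.32 in iTreg, and was 14.9-fold higher. Pla1a, a secreted phospholipase, was 18.3-fold higher, and Etv4, an ETS family factor, 11.2-fold higher. Gap43, Pla1a and Etv4 had their highest level in Th1reg. Lyl1, a basic helix-loop-helix factor of blood progenitors, was at 2.48 in Th1, -1.65 in Th1+TGFb, 0.29 in the rested culture, 1.90 in Th1reg and 1.40 in iTreg, so Th1+TGFb was the low culture. Stxbp6, a SNARE-binding protein, was at 1.99 in Th1reg and 1.98 in iTreg against a dim -4.65 in Th1+TGFb, at least 37.5-fold higher. On the lower side, Mgll, a monoacylglycerol lipase, was at 3.10 in Th1, 3.80 in Th1+TGFb, 0.49 in the rested culture and -2.17 in both Th1reg and iTreg, a 62.9-fold difference. Ecm1, a secreted matrix protein, was at 7.26 in Th1, 8.73 in Th1+TGFb, 5.13 in the rested culture, 2.99 in Th1reg and 5.86 in iTreg, a 53.4-fold difference, with Th1reg lowest of all.

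Genes were also sorted by pattern over the 5 arrays, a description with no test. In 96 genes (0.726%) Th1reg and iTreg were each at least 2-fold above the other 3 cultures, among them Foxp3, Lrrc32, Tgfbr1, Ccr8, Ccr6, Cx3cr1, Socs2, Tox and Dnmt3b, which included 4 of 27 regulatory T cell core genes. In 137 genes (1.04%) Th1reg and iTreg were each at least 2-fold below the other 3, among them Ccl5, Il12rb2, Hlx, Prdm1, Usp18 and Isg15. In 216 genes (1.63%) Th1+TGFb was at least 2-fold above all 4 others, with 10 of 14 killer lectin-like receptors, 7 of 25 genes of the granule list and 4 of 11 chemokine ligands. These counts include Klra17, Gzmd, Gzmf and Gzmg, which were dim in Th1reg and tested only because they were high in Th1+TGFb. In 29 genes (0.219%) Th1+TGFb was at least 2-fold below all others. Th1reg was at least 2-fold above all others in 191 genes (1.45%), among them Lta, Csf2, Ccl1 and Ccr4, and below them in 170 (1.29%), among them Satb1, Bcl6, Tcf7, Bcl2l11 and 6 of 29 quiescence genes.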

How the data were processed

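RNA from 5 cultures was hybridised to 5 one-colour Cy3 Agilent arrays on 1 slide with 1 scan time, so slide and scan do not separate the cultures. Per the file headers, Feature Extraction 10.7.1.1 produced the deposited intensity values (gProcessedSignal), already background-corrected. The deposited value table, of intensity divided by a constant per array, lay at 1 ratio to these signals for 99.7% to 99.8% of probes (within 0.01 log2) and served as an alternative. Unflagged spots of a probe were averaged, divided by the array's 75th percentile over non-control probes and put on the log2 scale; control probes and outlier-flagged spots (109 to 142 an array) were left out. The normexp alternative used median signal and median background columns. Probes were named through RefSeq accessions (28325 of 55681 matched, 21366 genes), and the brightest probe stood for a gene. Calls needed a 2-fold difference. Of 894 other probes of called genes, 90.2% had the same direction and 64.3% were 2-fold in that direction. The members and gene lists were chosen with earlier results of these data known. Genes named are the markers with Tbx21 and Ifng, genes among the 12 largest differences and 8 largest bounds each way, the 6 leading members of each list, members near no difference, and others chosen after their values were seen. Some list members that enter the counts are not reported here by name. Scripts were tested on simulated data. Analyses used R 4.3.3, limma 3.58.1, Python 3.11.15 and pandas 2.3.3.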

Additional observations from a re-analysis of the deposited data

How the results depend on the processing

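The 2-fold counts depended on scaling and filter, with 1783 genes higher and 1914 lower as reported. Higher genes numbered 954 when the percentile was taken over detected probes, 1082 after scaling to their median, 5648 with spike-in probes, 436 at 3-fold, and 3035 with every probe counted, an alternative chosen after seeing the data. Lower genes numbered 1053 with spike-ins, 1037 after normexp, 3242 with no filter, 1179 with both arrays above background, 1100 at 3-fold, 1036 with a signal of at least 100 and 5323 with every probe, the last 2 chosen after seeing the data. Under spike-in scaling 13 of 27 regulatory T cell core genes were higher, against 5648 of all 13215 genes. Lower there were 7 of 28 Th1 genes and 6 of 29 quiescence genes, against 1053 of all 13215. At 3-fold, 6 quiescence genes were lower, and 10 replication, 15 mitosis and 2 ribosome biogenesis genes higher. Ribosome biogenesis had 13 higher with the percentile over detected probes, and 13 with a lowess fit, chosen after seeing the data. Of 223 named genes past 2-fold, 171 stayed so in the same direction under every setting with a value, and none turned sign. List medians that were negative as reported turned positive under spike-in scaling for several lists, such as TGF-beta (0.30), inhibitory receptors (0.14) and glycolysis (0.26), all below the median of all genes there (0.87). No paired analysis was possible because each culture had 1 array. No replicate could be left out. Ratios of genes near the lowest level well above background are the least precise.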

Other observations

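Further clusters of neighbouring genes differed together; their members were chosen after their values were seen. Ifitm1 and Ifitm3, small interferon-inducible membrane proteins that restrict virus entry, lay in a chromosome 7 run with a median difference of -3.50. Ifitm1 was at 3.72 in Th1, 8.22 in Th1+TGFb, 6.74 in the rested culture, 4.46 in Th1reg and 2.50 in iTreg, and was 13.5-fold lower in Th1reg. Ifitm3 was 27.8-fold lower. A Ly6 run on chromosome 15 had a median of -2.75. On chromosome 13 a run of 7 histone genes had a median of 1.53, and a run of 4 aldo-keto reductase genes (Akr1c18, Akr1c13, Akr1c12 and Akr1e1) a median of 2.65.

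H19, an imprinted noncoding RNA, was at -0.91 in Th1, -2.91 in Th1+TGFb, 1.83 in Th1reg and 4.57 in iTreg and dim in the rested culture (-2.77). It was 26.7-fold higher in Th1reg than in Th1+TGFb. Adora2a, an adenosine receptor, was 6.27-fold lower in Th1reg, and Ptger4, a prostaglandin receptor, higher by 2.07 in log2. Il1r2, a decoy receptor for interleukin-1, was at 4.95 in Th1+TGFb and dim in Th1reg (-5.02), at least 407-fold lower. Esm1, which lies in the chromosome 13 run with Gzma, was at least 434-fold lower.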
